A study of Mus musculus with 463 samples.

Results

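Sim1 is 1 of the 40824 genes whose reads were counted in the ventral and dorsal pancreas of the mouse embryo, and it was taken by its symbol, which occurs on 1 row of each count table. Its read counts were followed over 16 libraries of sorted cells and over 447 single cells. It was chosen by its measured difference in CPM between the sides in these same libraries and cells, so its own levels are given as descriptions, without a test.

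Sim1 encodes a transcription factor of the bHLH-PAS family, the mammalian counterpart of single-minded, which directs midline cells of the nervous system in Drosophila. Proteins of this family bind DNA as dimers, and Sim1 pairs with the general partners Arnt and Arnt2. In mice it is best known from the hypothalamus, where neurons of the paraventricular and supraoptic nuclei depend on it and where it takes part in the control of food intake.

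Cells were sorted by reporters that mark stages of pancreas development: Pdx1-GFP marks the early pancreatic epithelium, Ngn3-GFP the cells entering the endocrine path, and an Insulin-RFP transgene the beta cells. The bulk libraries formed 8 groups of 2, made of ventral and dorsal Pdx1-GFP+ cells at E10.5, ventral and dorsal Ngn3-GFP-high cells at E14.5, ventral and dorsal Ngn3-GFP-low cells at E14.5, and ventral and dorsal Ins1-RFP+ cells at E17.5. The single cells, sequenced by Smart-seq2, came from Pdx1-GFP+ tissue at E9.5 (44 ventral and 31 dorsal) and from 3 Pdx1-GFP sorts at E10.5: high (39 ventral and 28 dorsal), low (39 ventral and 40 dorsal) and + (59 ventral and 27 dorsal). Further E10.5 cells were ventral Pdx1-low cells without or with the hepatoblast surface marker Liv2 (59 Liv2- and 54 Liv2+) and Liv2+ cells of the liver bud (23), and 4 cells came from E15.5 liver labelled by Pdx1-Cre and a ROSA26 tdTomato reporter. Reporter brightness, with Liv2 where named, set each gate, and the labels do not give the number of embryos behind a library or explain what a numbered set of cells stands for.

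In GRCm38, Sim1 (ENSMUSG00000019913) spans 94.4 kb of chromosome 10, from 50894754 to 50989152 on the plus strand, and no other annotated gene overlaps it in GENCODE M21. Its 2 annotated transcripts have 11 exons (start at 50895651) and 3 exons (start at 50894754). The promoter is shown because levels below differ by side within the same cell sorts. The 250 bases before the RefSeq start at 50895651 (chr10:50895401-50895650, plus strand, GRCm38.p6, 45.6% G and C) read as follows, with motif matches in capitals.
Sim1 promoter: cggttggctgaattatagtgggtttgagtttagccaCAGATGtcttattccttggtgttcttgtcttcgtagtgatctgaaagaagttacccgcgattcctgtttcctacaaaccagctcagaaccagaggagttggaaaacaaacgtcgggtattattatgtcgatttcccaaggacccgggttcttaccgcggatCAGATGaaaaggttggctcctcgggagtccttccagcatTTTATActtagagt

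Searched on both strands, this window held 2 copies of the E-box CANNTG, the motif bound by bHLH proteins, at 214 and 53 bases before the start. Both copies are spelled CAGATG, so the searches for CANNTG and CAGATG hit the same letters. Of 32851 mouse promoter windows of the same length, 66.2% held CANNTG, and 31.8% held at least 2 copies of it. CAGATG was held by 14.4%, and by 1.32% in at least 2 copies. That spelling is the one seen in the Sim1 window, so no rarity is read from its shares. The TATA box TATAAA matched once, on the minus strand 14 bases before the start (12.4% of promoters). The letters of a forkhead motif (TGTTTAC, 3.17% of promoters), a homeodomain core (TAATTA, 4.84%), a GATA motif (AGATAA, 9.99%) and the element bound by Sim and Arnt dimers (TACGTG, 2.72%) were not in this window. These matches describe letters and do not show that a protein binds there.

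Sim1 was a dorsal transcript at each bulk stage. At E10.5 it had 12 and 8 reads in the ventral Pdx1-GFP+ libraries, or 1.23 and 0.665 CPM (reads scaled to a common library total, with TMM factors), against 655 and 878 reads, or 70.2 and 88.2 CPM, in the dorsal ones. The lowest dorsal library thus stood far above the highest ventral library. The group means were 0.948 ± 0.401 CPM in ventral and 79.2 ± 12.7 CPM in dorsal cells (SD, n = 2 each), so the ventral level was 1.20% of the dorsal level. The log2 ratio of ventral to dorsal, with 0.5 CPM added to both, was -5.78 (SD 0.47 from the libraries).

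At E14.5 the same gap was present in cells turning endocrine. The ventral Ngn3-GFP-high libraries had 14 and 43 Sim1 reads (1.04 and 2.59 CPM), and the dorsal Ngn3-GFP-high libraries had 2833 and 1238 reads (116 and 114 CPM). The log2 ratio was -5.64 (SD 0.71), and the ventral level was 1.58% of the dorsal level. In the Ngn3-GFP-low cells Sim1 had 11 and 24 reads (0.712 and 1.42 CPM) in ventral and 576 and 642 reads (35.7 and 40.2 CPM) in dorsal libraries. The ratio there was -4.62 on the log2 scale (SD 0.49).

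At E17.5 the beta cells of the sides were closest. The ventral Ins1-RFP+ libraries had 25 and 38 Sim1 reads (1.93 and 3.96 CPM) and the dorsal libraries 392 and 310 reads (31.4 and 33.5 CPM). The log2 ratio was -3.26 (SD 0.62), with the ventral level at 9.06% of the dorsal level. In all 4 pairs the ventral and dorsal libraries did not overlap. Of the 17690 genes tested by edgeR's quasi-likelihood test, 25.3% passed an adjusted p of 0.05 at E10.5, 0.486% in Ngn3-GFP-high cells, 0.0170% in Ngn3-GFP-low cells and 0.0283% at E17.5, with 0.0565% higher and 0.430% lower in ventral Ngn3-GFP-high, 0.00565% and 0.0113% in Ngn3-GFP-low, and 0.00565% and 0.0226% in E17.5 cells. Nothing is read from Sim1 against these shares, since it was chosen for its difference.

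**Figure D1:**
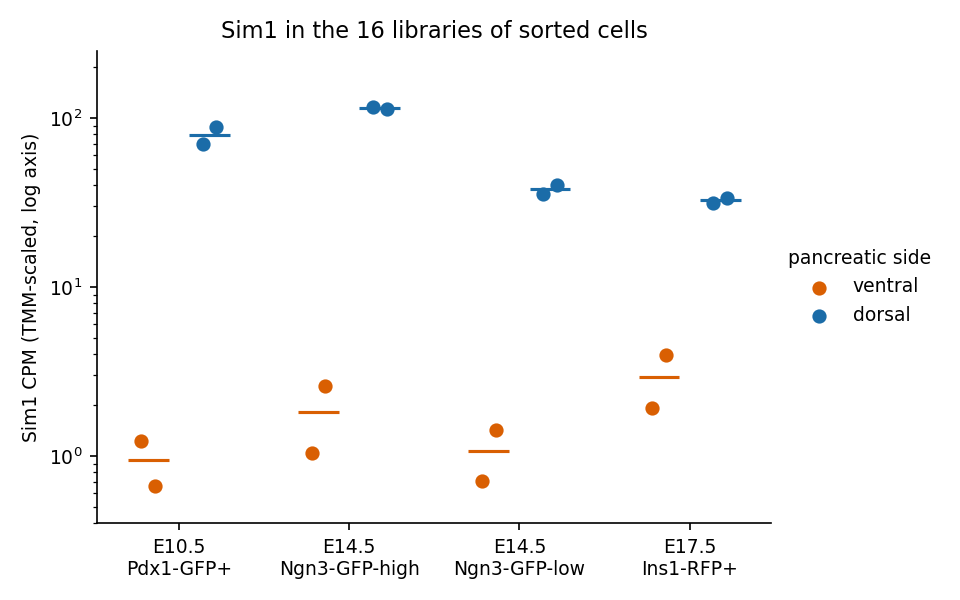
Sim1 in each of the 16 bulk libraries, as CPM on a log axis, by stage and sort, with ventral libraries (orange) left of dorsal ones (blue). Points are libraries and lines are means of 2. The ventral points lie at 3.96 CPM or lower and the dorsal points at 31.4 CPM or higher.

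The order of the 8 group means was dorsal Ngn3-GFP-high (115 ± 1.58 CPM), dorsal E10.5 Pdx1-GFP+ (79.2 ± 12.7), dorsal Ngn3-GFP-low (37.9 ± 3.20), dorsal E17.5 (32.5 ± 1.48), ventral E17.5 (2.94 ± 1.44), ventral Ngn3-GFP-high (1.82 ± 1.09), ventral Ngn3-GFP-low (1.07 ± 0.502) and ventral E10.5 (0.948 ± 0.401, SD, n = 2 each). Each of the 4 dorsal groups differed from the next in this order by more than the sum of their SDs. The 4 ventral groups did not differ from their neighbours beyond that spread. On the dorsal side, Sim1 was 3.02 times as high in Ngn3-GFP-high as in Ngn3-GFP-low cells, and the E17.5 beta cells had 0.283 of the level of the Ngn3-GFP-high cells. On the ventral side the ratio of high to low was 1.70, within the spread.

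Per length, Sim1 was a gene of middle abundance on the dorsal side. The authors' deposited RPKM, which pool the libraries of a group, were 0.14 in ventral and 11.42 in dorsal E10.5 cells, and in the dorsal cells Sim1 exceeded 69.3% of detected genes. In Ngn3-GFP-high cells the deposited values were 0.25 in ventral and 15.62 in dorsal cells, where Sim1 exceeded 28.0% and 77.4% of detected genes. Pdx1, the transcription factor that marks the pancreatic epithelium, stood at 111.46 RPKM in ventral and 105.2 RPKM in dorsal Ngn3-GFP-high cells, and Neurog3, the endocrine determinant, at 612.76 and 574.25 RPKM. The sides of this sort were thus close in both of these genes. The E10.5 sides were not, with Pdx1 at 26.83 RPKM in ventral and 58.79 RPKM in dorsal Pdx1-GFP+ cells. Neurog3 stood at 6.29 RPKM in ventral and 61.63 RPKM in dorsal E10.5 cells. Summed over 5 progenitor markers, the E10.5 libraries had 345 to 365 CPM in ventral and 798 to 803 CPM in dorsal cells.

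Libraries held 8779418 to 24551520 reads on genes. In the sorted bulk cells, fewer cells of a type and less RNA per cell cannot be told apart. Summed over 5 markers of alpha cells, which make glucagon, the E10.5 libraries had 199 to 244 CPM in ventral and 2927 to 2931 CPM in dorsal cells. At E14.5 these sums were 1120 to 1149 CPM in ventral and 3416 to 3498 CPM in dorsal Ngn3-GFP-high cells, and at E17.5 they were 591 to 616 CPM in ventral and 1337 to 1565 CPM in dorsal beta cells. In Ngn3-GFP-low cells they were 177 to 178 CPM in ventral and 195 to 329 CPM in dorsal libraries. These sums therefore stood higher on the dorsal side together with Sim1, with the smallest ratio in Ngn3-GFP-low cells. Gcg, the glucagon gene, did not share that order. Its dorsal mean was 82.8 CPM against a ventral 12.6 CPM for Ngn3-GFP-low cells, a larger ratio than the 946 against 169 CPM of E17.5. The sums are not specific to alpha cells, since they were 1177 to 1234 CPM in liver bud sets, where Gcg was at most 102 CPM per cell. The part of alpha cells in the bulk difference was not tested. The ventral E10.5 libraries also carried RNA of other types: hepatoblast markers (4 of 4 with reads) summed to 1490 to 1880 CPM in ventral libraries and 134 to 161 CPM in dorsal ones, and cardiac markers (3 of 3) to 698 to 1201 CPM in ventral libraries and 2.51 to 10.6 CPM in dorsal ones.

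Sim1 is also used by neurons, somites and the nephric duct of the embryo, so markers of these tissues were read in the same libraries. At E10.5 the 5 neural markers summed to 3.08 to 3.39 CPM in ventral libraries and 20.3 to 20.4 CPM in dorsal ones. In Ngn3-GFP-high cells they ran the other way, with 48.6 to 53.5 CPM in ventral libraries and 39.8 to 43.9 CPM in dorsal ones. The somite markers (4 genes) stood at 3.59 to 3.74 CPM in ventral and 5.82 to 12.3 CPM in dorsal E10.5 libraries, and the nephric markers (3 genes) at 9.34 to 11.5 CPM in ventral and 8.57 to 9.14 CPM in dorsal ones. The part of the neural and somite signal in the E10.5 difference was not tested in bulk, but single cells give a level per cell.

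In single cells the sides differed both in how many cells held Sim1 reads and in the reads per cell. Of 294 ventral cells of E9.5 and E10.5, 26 had a Sim1 read (8.84%, exact 95% Clopper-Pearson interval 5.86 to 12.7%), and 23 of those had a single read. Of 126 dorsal cells, 108 had a read (85.7%, 78.4 to 91.3%), and 4 of those had a single read. A level of 10 CPM was reached in 2 ventral cells and in 87 dorsal cells. As a background, 2 of 23 liver bud cells had a read (8.70%, 1.07 to 28.0%), each a single one, at a median depth of 1243844 reads, against 1043830 reads in the ventral cells. Both reads came from set 2 (2 of 11 cells, 18.2%), while set 1 had 0 of 12. The ventral share lay within the interval of this thin background, and no expression is read from single reads. Intervals cover counting error only, and Smart-seq2 reads carry no molecular identifiers.

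The dorsal sorts resembled each other and stood apart from each ventral sort. In the Pdx1-GFP-high sort, 5 of 39 ventral cells (12.8%, 4.30 to 27.4%) and 26 of 28 dorsal cells (92.9%, 76.5 to 99.1%) had a read. In the Pdx1-GFP-low sort these were 1 of 39 ventral cells (2.56%) and 36 of 40 dorsal cells (90.0%, 76.3 to 97.2%). In the Pdx1-GFP+ sort they were 2 of 59 ventral cells (3.39%) and 24 of 27 dorsal cells (88.9%, 70.8 to 97.6%). The ventral Pdx1-low cells split by Liv2 had a read in 5 of 59 Liv2- and 6 of 54 Liv2+ cells, all single reads.

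The gap remained at equal depth. After each cell was thinned to 200000 reads, below the depth of all cells, 2 of 39 ventral and 23 of 28 dorsal Pdx1-high cells kept a read, as did 0 of 39 ventral and 32 of 40 dorsal Pdx1-low cells and 0 of 59 ventral and 22 of 27 dorsal Pdx1+ cells. At that depth the exact upper limits were 9.03% for the 0 of 39 and 6.06% for the 0 of 59 ventral cells, and unthinned they were 13.5% and 11.7%.

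**Figure D2:**
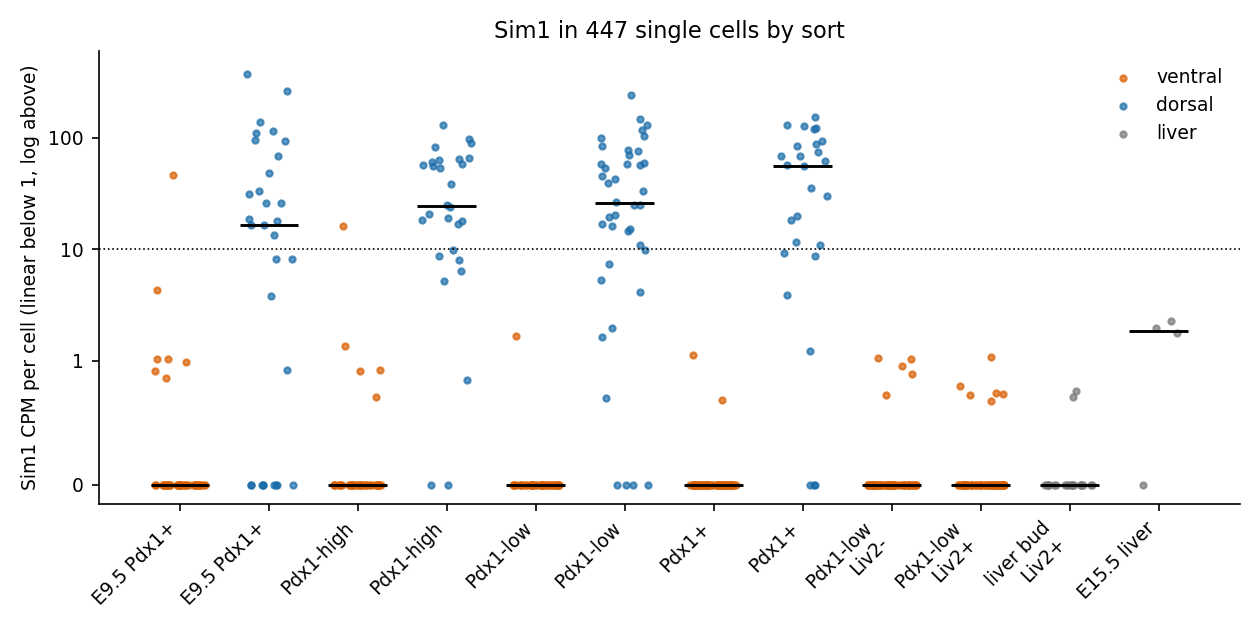
Sim1 CPM in each of the 447 cells by sort, linear below 1 CPM and logarithmic above, with ventral cells (orange) left of the dorsal cells (blue) of the same sort and liver cells in grey. Black lines are medians and the dotted line marks 10 CPM. The ventral medians are 0 and the dorsal medians lie between 16.6 and 55.7 CPM.

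Dorsal cells varied widely among themselves. The median was 24.5 CPM in Pdx1-high, 25.7 CPM in Pdx1-low and 55.7 CPM in Pdx1+ dorsal cells, and the highest cells had 130, 240 and 152 CPM in these sorts. Of all 95 dorsal E10.5 cells, 69 reached 10 CPM (72.6%, 62.5 to 81.3%) and 9 had no read, against 1 of 250 ventral E10.5 cells at 10 CPM. Summed over the cells of a numbered set, Sim1 averaged 0.727 ± 1.38 CPM in ventral and 42.2 ± 5.90 CPM in dorsal Pdx1-high sets (SD, n = 5 each), and 0 CPM in 5 ventral and 37.2 ± 17.49 CPM in 6 dorsal Pdx1-low sets. The Pdx1+ sets averaged 0.0297 ± 0.0259 CPM in ventral and 66.3 ± 27.9 CPM in dorsal cells (n = 3 each). The dorsal E10.5 groups did not differ from each other beyond their spread over sets, and levels under 0.2 CPM rest on so few reads that no order is read from them. The dorsal Pdx1+ sets were unlike in their cells: set 1 held 78.4 CPM of Sim1 with 6309 CPM of Gcg, set 2 held 34.5 CPM with 6.92 CPM of Gcg, and set 3 held 86.1 CPM with 37354 CPM of Gcg. In these sums no ventral set reached the lowest dorsal set, which held 7.81 CPM.

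The dorsal side of E9.5 already held Sim1. A read was present in 7 of 44 ventral cells (15.9%, 6.64 to 30.1%) and 22 of 31 dorsal cells (71.0%, 52.0 to 85.8%), and 10 CPM was reached in 1 ventral and 18 dorsal cells (58.1%). The dorsal E9.5 median was 16.6 CPM, and the highest cell, at 375 CPM, exceeded each E10.5 cell. The set sums were 0.270 and 2.74 CPM in ventral and 17.6 and 58.1 CPM in dorsal E9.5 cells. The dorsal share at E9.5 was below that of all dorsal E10.5 cells (90.5%, 82.8 to 95.6%). The intervals overlapped at their ends, which does not show the shares to be alike, and the difference was not tested. The dorsal E9.5 cells came from 2 sets, with a read in 85.7% of cells of set 1 and 66.7% of set 2. For 25 of the ventral E9.5 cells the labels state a culture procedure for human stem cells. These had a read in 6 of 25 cells, 5 of them a single read, and the other ventral cells in 1 of 19 (5.26%).

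Among ventral cells, 3 held more than 1 Sim1 read. An E10.5 Pdx1-high cell had 16 reads (16.3 CPM) together with 123 Pdx1 reads, 846 reads of the progenitor gene Sox9 and 5 Gcg reads. An E9.5 cell had 51 reads (46.2 CPM) with 111 Pdx1 and 165 Sox9 reads, and another E9.5 cell had 4 reads. Both cells above 10 CPM thus carried progenitor genes and next to no Gcg. The 4 cells of E15.5 liver, in a single set, had 1, 0, 1 and 1 Sim1 reads at 442896 to 566461 reads per cell, that is at most 2.26 CPM.

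Sim1 was found on both arms of the dorsal E10.5 bud, the Pdx1 cells and the glucagon cells. Most cells held Pdx1 or Gcg but not both, and 28 of the cells came from the Pdx1-high and 40 from the Pdx1-low gate, which sort on the Pdx1 reporter. Of 95 dorsal cells, 46 had 10 CPM or more of Pdx1 without Gcg, 40 had Gcg without Pdx1, 8 had both and 1 neither. Gcg was counted from 1000 CPM, a limit chosen after the data were seen, because single ventral cells held up to 398 CPM of Gcg. Sim1 reached 10 CPM in 32 of the 46 Pdx1 cells (69.6%, 54.2 to 82.3%, median 24.5 CPM), in 29 of the 40 Gcg cells (72.5%, 56.1 to 85.4%, median 29.9 CPM) and in 8 of the 8 cells with both. The intervals of the Pdx1 and Gcg cells overlapped, and the difference between their shares was not tested. In the Pdx1-GFP+ sort alone, Sim1 reached 10 CPM in 11 of 17 Pdx1 cells (median 19.9 CPM), in 6 of 7 Gcg cells (median 83.4 CPM) and in 3 of 3 cells with both, and the difference in medians was not tested.

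**Figure D3:**
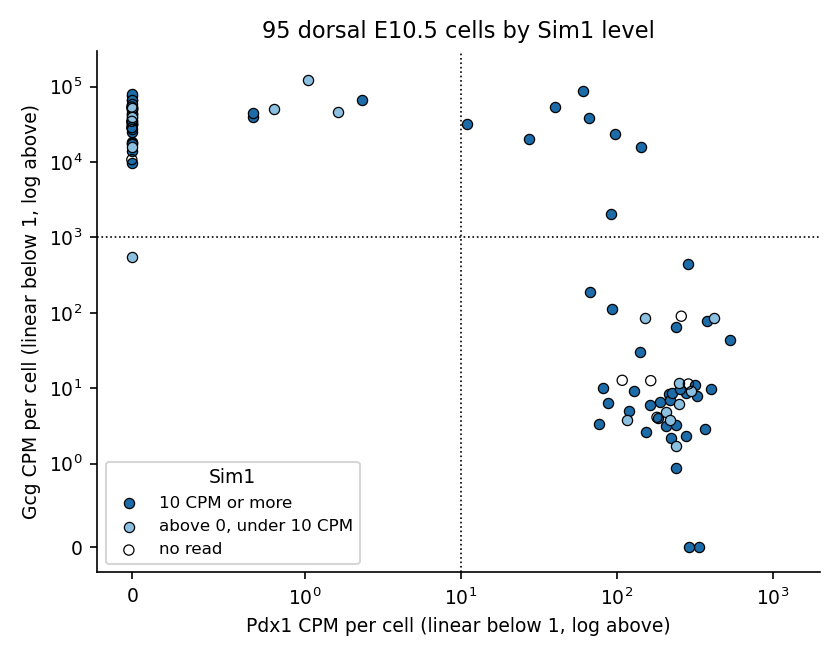
Pdx1 (x axis) and Gcg (y axis) in CPM for the 95 dorsal E10.5 cells, both linear below 1 and logarithmic above, with the fill giving the Sim1 level. Dotted lines mark 10 CPM of Pdx1 and 1000 CPM of Gcg. Dark points, the cells with 10 CPM or more of Sim1, make up 32 of 46 cells at the lower right and 29 of 40 at the upper left.

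Counted by single reads, Sim1 and Pdx1 were found together in 55 dorsal E10.5 cells, Sim1 without Pdx1 in 31, Pdx1 without Sim1 in 5 and neither in 4. For Gcg from 1000 CPM these counts were 44 with both, 42 with Sim1 only, 4 with Gcg only and 5 with neither. At 10 CPM, Sim1 was present in 16 of 23 cells with Neurog3, in 46 of 62 cells with Sox9 and in 41 of 54 cells with Chgb, which encodes a protein of secretory granules. These shares, from 69.6% to 75.9%, lay beside the 72.6% of all dorsal E10.5 cells. For Neurog3 the sorts were unlike. In Pdx1-high cells Sim1 was present in 8 of 15 cells with Neurog3, while 12 cells had Sim1 only and 1 had neither. In Pdx1+ cells it was present in 6 of 6 cells with Neurog3 and in Pdx1-low cells in 2 of 2. Over the 95 cells, log2 Sim1 CPM had a Pearson correlation of -0.02 with Pdx1 and 0.06 with Gcg, and no order is read from values this weak. Within sorts the values differed: with Pdx1 the correlation was 0.06 in Pdx1-high, 0.10 in Pdx1-low and -0.30 in Pdx1+ cells, and 0.35 in E9.5 dorsal cells. With Gcg it was -0.12 in Pdx1-high, 0.01 in Pdx1-low and 0.32 in Pdx1+ cells, where Chgb stood at 0.49. With Neurog3 it was -0.27 in Pdx1-high, 0.15 in Pdx1-low, 0.33 in Pdx1+ and 0.08 in E9.5 dorsal cells. With Arnt2 it was 0.51 in Pdx1-high, 0.04 in Pdx1-low, -0.05 in Pdx1+ and 0.09 in E9.5 dorsal cells. Cells of a sort share sets and differ in depth. At E9.5, where no dorsal cell reached 10 CPM of Gcg, Sim1 and Pdx1 were found together in 21 dorsal cells, Sim1 alone in 1, Pdx1 alone in 8 and neither in 1. Sim1 was thus present in dorsal cells of a stage at which Gcg was not yet found at that level.

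The dorsal Pdx1-low cells were mostly glucagon cells: 38 of 40 had 1000 CPM of Gcg or more, while none of the 39 ventral Pdx1-low cells did. Hepatoblast markers summed to 970 to 7145 CPM in ventral and 48.0 to 703 CPM in dorsal Pdx1-low sets, so this pair compares unlike cells under the same gate. The Pdx1-high pair was closer in progenitor markers. It differed in Neurog3, which reached 10 CPM in 6 of 39 ventral and 15 of 28 dorsal cells. The 5 progenitor markers of this pair summed to 1361 to 1889 CPM in ventral and 1190 to 1871 CPM in dorsal sets. No cell of either side reached 1000 CPM of Gcg. The 5 neural markers summed to 0 to 19.4 CPM in ventral and 0 to 11.5 CPM in dorsal sets. Somite markers stood at 0.239 to 19.2 CPM in ventral and 0 to 12.3 CPM in dorsal sets. Nephric markers stood at 0 to 68.2 CPM in ventral and 0 to 7.89 CPM in dorsal sets. In that pair, 0.00574% of the 17433 genes fitted in edgeR passed. No test of Sim1 is reported there, since it was chosen for this difference.

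The partners that Sim1 needs were present on both sides. Arnt had 64.8 ± 4.15 CPM in ventral and 70.0 ± 1.63 CPM in dorsal E10.5 libraries (log2 fold change -0.11, adjusted p = 0.372), and in the later pairs its log2 fold change lay between -0.13 and 0.01. Arnt2, the partner used in hypothalamic neurons, had 113 ± 17.45 CPM in ventral and 89.3 ± 0.232 CPM in dorsal E10.5 libraries (log2 fold change 0.35, SE 0.12, adjusted p = 0.0505), which missed the threshold and was crossed in 5 of 8 alternative settings. In Ngn3-GFP-high cells it had 65.8 ± 4.14 CPM in ventral libraries and 65.8 ± 3.64 CPM in dorsal ones. Sim2, the paralog, had at most 0.321 CPM in any library and was not tested. Per length, the deposited RPKM of Arnt2 were 20.83 in ventral and 15.77 in dorsal E10.5 cells, and those of Arnt 16.37 and 17.13, beside 0.14 and 11.42 for Sim1.

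**Figure D4:**
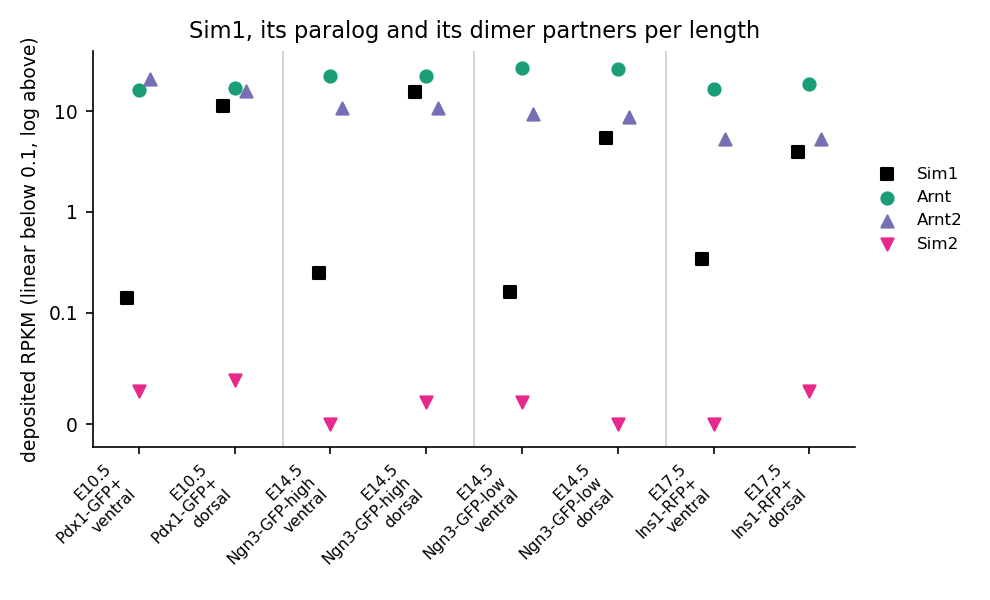
Deposited RPKM of Sim1, its paralog Sim2 and the dimer partners Arnt and Arnt2 in the 8 bulk groups, ventral left of dorsal in each pair, linear below 0.1 and logarithmic above. Each point is the authors' value for a group, with its libraries pooled. Sim1 moves between 0.14 and 15.62 RPKM by side, while Arnt and Arnt2 lie at 5.27 RPKM or higher in each group.

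Among the other bHLH-PAS genes, 3 were higher and 4 lower in ventral E10.5 cells of 17 tested, beside 10.6% of all genes higher and 14.7% lower. Clock, a circadian gene, fell to 27.6 ± 3.44 CPM in ventral against 55.1 ± 0.845 CPM in dorsal libraries (log2 fold change -0.995, edgeR adjusted p = 1.32e-05), and Arntl, which encodes its partner, fell to 9.44 ± 1.01 against 16.3 ± 1.74 CPM (-0.80, adjusted p = 0.00143). The coactivator Ncoa1 fell by 0.56 on the log2 scale (adjusted p = 0.00114). Hif3a, a hypoxia factor, rose to 25.4 ± 1.55 CPM in ventral against 12.7 ± 0.296 CPM in dorsal libraries (0.997, adjusted p = 0.00193). The other 3 calls, named after their values were seen, were Arntl2 (-1.39), Epas1 (2.88) and Ncoa3 (0.36). The median log2 fold change of the 17 was 0.08, against -0.03 over all genes, and in the 3 later pairs 0 of the 17 passed in edgeR. At an unadjusted p under 0.05 the count was 0 in each, and DESeq2 called none.

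The family was also compared by the Ngn3 gate. Comparing Ngn3-GFP-high with Ngn3-GFP-low cells, 5 rose and 4 fell of 17 on the ventral side and 5 rose and 5 fell on the dorsal side, where 62.0% (ventral) and 61.6% (dorsal) of all genes passed, so the family's share was not above that of all genes. Ahr, the dioxin receptor, fell to 5.35 ± 0.522 CPM in ventral Ngn3-GFP-high cells, against 62.2 ± 0.180 CPM in Ngn3-GFP-low cells (log2 fold change -3.53, adjusted p = 4.30e-10), and by 3.39 on the dorsal side. Hif3a fell by 2.63 in ventral and by 2.45 in dorsal cells. Clock rose by 1.43 in ventral and 1.26 in dorsal cells and Ncoa1 by 0.96 and 0.91. Arnt2 rose by 0.33 in ventral and 0.38 in dorsal cells (adjusted p = 0.0302 and 0.0139), and each call was lost without Ngn3-GFP-low library 1 or Ngn3-GFP-high library 2 of its side. Whether these changes differ between the sides was not tested.

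Genes known from Sim1 neurons of the mouse hypothalamus or acting with Sim1 there were mostly scarce. Of 12 such genes 9 were tested in bulk, and at E10.5 1 was higher and 3 lower in ventral cells, beside 10.6% and 14.7% of all genes. Bdnf, a neurotrophin, fell to 2.15 ± 0.720 CPM in ventral against 9.61 ± 1.61 CPM in dorsal libraries (log2 fold change -2.13, edgeR adjusted p = 5.22e-05). Plxnc1, a semaphorin receptor, rose to 10.2 ± 0.217 CPM in ventral against 2.92 ± 0.867 CPM in dorsal libraries (1.81, adjusted p = 0.00152). The transcription factor gene Nhlh2 and the hormone gene Sst had no read in ventral libraries and were at least 7.32-fold and at least 20.9-fold lower than in dorsal libraries, from 3 counts over the group. Both calls depended on single libraries: Nhlh2 was lost without dorsal library 1 or ventral library 2, and Sst without dorsal library 1 or either ventral library. In the later bulk pairs 0 of the 9 passed in edgeR, and DESeq2 called none. At an unadjusted p under 0.05, 1 was below in Ngn3-GFP-high cells, 0 in Ngn3-GFP-low cells and 2 at E17.5. The median over the 9 at E10.5 was -2.51, also with Nhlh2 and Sst set to their bounds, against -0.03 over all genes.

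By the Ngn3 gate, 5 of the 9 rose and 2 fell on each side, where 62.0% (ventral) and 61.6% (dorsal) of all genes passed. Sst, which encodes somatostatin, rose to 79.8 ± 3.48 CPM in ventral Ngn3-GFP-high cells, against 0.154 ± 0.0342 CPM in Ngn3-GFP-low cells (log2 fold change 8.93, edgeR adjusted p = 3.42e-08), and by 8.83 on the dorsal side. Mc4r, a melanocortin receptor, rose to 5.05 ± 1.27 CPM in ventral Ngn3-GFP-high cells, against 0.0296 ± 0.0419 CPM in Ngn3-GFP-low cells. On the dorsal side Mc4r had 2.80 ± 0.842 CPM in Ngn3-GFP-high cells and no read in Ngn3-GFP-low cells, at least 29.9-fold higher. Bdnf rose by 2.86 in ventral and 2.39 in dorsal cells, and Plxna1, a plexin, fell by 1.55 in ventral and 1.56 in dorsal cells. Trh missed the threshold on both sides, with 0.374 CPM in ventral Ngn3-GFP-high and 0.340 CPM in ventral Ngn3-GFP-low cells.

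In the Pdx1-low single-cell sets, where 24.9% of 17433 genes passed, 1 of 7 genes of the hypothalamic list was higher and 3 lower in ventral cells. Avp, the vasopressin gene, had no read in ventral sets and 6.22 ± 4.73 CPM in dorsal sets (at least 87.7-fold lower, edgeR adjusted p = 0.0118), a call lost in DESeq2 (adjusted p = 0.124) and kept in the other 14 settings. Bdnf had no read in ventral sets and 19.1 ± 31.5 CPM in dorsal sets (adjusted p = 0.00152), and Sst had 1.17 ± 2.20 CPM in ventral and 48.7 ± 55.7 CPM in dorsal sets (adjusted p = 0.0207). For both, the groups overlapped, and the Sst call was lost without dorsal set 5. Trh, the gene of thyrotropin-releasing hormone, had 3.98 ± 4.44 CPM in ventral sets and no read in dorsal sets (at least 61.0-fold higher, adjusted p = 0.0207). Of 16 bHLH-PAS genes Arnt2 was higher, with 36.9 ± 13.9 CPM in ventral and 11.8 ± 5.32 CPM in dorsal sets (log2 fold change 1.63, adjusted p = 0.00758), and Clock lower (-1.83, adjusted p = 0.0255, lost without ventral set 1, 2 or 5). In the Pdx1-high sets 0 of the 16 and 0 of the 7 passed in edgeR, 0 of each had an unadjusted p under 0.05, and DESeq2 called none.

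Of the genes around Sim1, some differed by side at E10.5 and none passed later. GENCODE M21 places 7 protein-coding genes within 1 Mb, of which 4 were tested in bulk: Ascc3, a helicase gene ending 43.3 kb before Sim1; Lilrb4, 491.5 kb after it; Gprc6a, a receptor gene 625.7 kb after it; and Rfx6, 688.6 kb after it. Rfx6 encodes a winged-helix factor needed for islet cell formation. At E10.5 it fell to 33.6 ± 7.16 CPM in ventral against 106 ± 18.4 CPM in dorsal libraries (log2 fold change -1.66, SE 0.19, edgeR adjusted p = 1.66e-05). In Ngn3-GFP-high cells it had 503 ± 49.0 CPM in ventral libraries and 445 ± 37.3 CPM in dorsal ones (0.18, adjusted p = 1.00), and at E17.5 it had 205 ± 10.9 CPM in ventral libraries and 224 ± 9.75 CPM in dorsal ones (-0.12, adjusted p = 1.00).

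Ascc3 fell to 45.7 ± 4.32 CPM in ventral against 70.1 ± 2.65 CPM in dorsal E10.5 libraries (-0.61, adjusted p = 0.00249), and its log2 fold changes in the later pairs lay between -0.21 and 0.04. Gprc6a had 1.58 ± 0.934 CPM in ventral and 3.31 ± 0.288 CPM in dorsal E10.5 libraries (-1.03, adjusted p = 0.0824). Lilrb4 rose by 3.44 at E10.5 (adjusted p = 0.00483), a call lost without dorsal library 1. The annotation sets its near copies Lilr4b and Lilrb4a inside the same interval, so its reads are uncertain. In total 1 neighbour was higher and 2 lower at E10.5, beside 10.6% of all genes higher and 14.7% lower, and 0 of 4 passed in edgeR in each later ventral and dorsal pair, where 0 had an unadjusted p under 0.05 and DESeq2 called none.

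The neighbours were also compared by the Ngn3 gate. Rfx6 rose to 503 ± 49.0 CPM in ventral Ngn3-GFP-high cells, against 21.7 ± 5.73 CPM in Ngn3-GFP-low cells (log2 fold change 4.53, adjusted p = 1.06e-10), and to 445 ± 37.3 against 17.9 ± 4.24 CPM on the dorsal side (4.63). Gprc6a rose by 3.90 in ventral and 4.00 in dorsal cells, and Ascc3 by 0.64 and 0.39, of which the dorsal call was lost without Ngn3-GFP-low library 1 or Ngn3-GFP-high library 2. Of the 4, 3 rose and Lilrb4 fell on each side, beside the 62.0% (ventral) and 61.6% (dorsal) of all genes that passed. In the Pdx1-low sets Rfx6 had 4.48 ± 6.22 CPM in ventral and 277 ± 151 CPM in dorsal cells (-5.96, edgeR adjusted p = 6.49e-04), and Ascc3 and Fam162b were also lower. Of the 4 neighbours tested there, 0 were higher and 3 lower, beside 13.9% and 11.0% of all genes. The Fam162b call was lost without any of the 5 ventral sets, and the Ascc3 call without dorsal set 3 or ventral set 3 or 6.

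**Figure D5:**
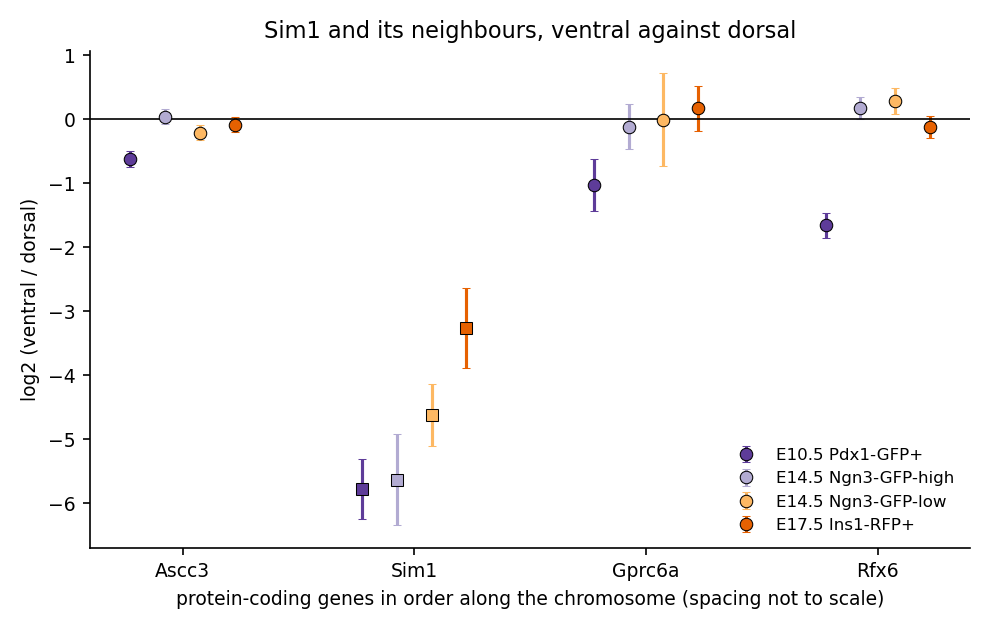
Log2 ratio of ventral to dorsal for Sim1 (squares) and 3 neighbouring genes (circles), in chromosome order, for the 4 bulk pairs. Bars are the SE of the edgeR fit for the neighbours and the SD over libraries for Sim1, whose fit is not used. Lilrb4, whose reads are uncertain, is not drawn. Sim1 lies between -5.78 and -3.26, and Ascc3, Gprc6a and Rfx6 lie between -1.66 and 0.28.

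Genes whose level ran most like that of Sim1 were ranked by the Pearson correlation of log2(CPM + 1), as a description. Over the 16 bulk libraries they were Gcg (r = 0.78), Tmem179 (0.75), Glis1 (0.73), Eif2b1 (0.71), Nxph1 (0.70), Hsbp1l1 (0.68), Brs3 (0.67) and Mrpl10 (0.67). Gcg, the closest, averaged 229 CPM in ventral and 2205 CPM in dorsal Ngn3-GFP-high cells, and 12.6 CPM in ventral and 82.8 CPM in dorsal Ngn3-GFP-low cells. Nxph1, which encodes a neurexophilin, averaged 0.0831 CPM in ventral and 6.63 CPM in dorsal E10.5 cells. Over the 37 single-cell sets the list was Edn3 (0.88), Pam (0.85), Clps (0.79), Kcnj11 (0.79), Fxyd3 (0.78), Spsb1 (0.78), Tspan7 (0.78) and Eps8 (0.77). Edn3, the gene of the signalling peptide endothelin 3, averaged 6.57 CPM in ventral and 59.1 CPM in dorsal Pdx1-high sets, and Pam, which amidates peptide hormones, 53.9 CPM in ventral and 296 CPM in dorsal ones. The lists shared no gene, and libraries of a group share their sort, so these points are not independent.

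With Sim1 left aside, 0 of 17689 genes (0.00%) passed in edgeR in all 4 bulk pairs in the same direction, and DESeq2 also gave 0. Few genes could do so, since 3 of 17690 passed in the Ngn3-GFP-low pair and 5 at E17.5. Sim1 was chosen for its difference in these libraries, so the count does not set it apart from other genes. At an unadjusted p under 0.05 in each pair, 10 genes passed in the same direction. The adjusted threshold was passed in exactly 3 pairs by 4 genes. Irx1 and Irx2, homeodomain factors of the Iroquois family, and the imprinted gene Peg10 were lower in ventral cells in all but the Ngn3-GFP-low pair. Irx2 had 2.16 CPM in ventral and 129 CPM in dorsal E10.5 libraries (log2 fold change -5.92), 29.6 CPM in ventral and 133 CPM in dorsal Ngn3-GFP-high libraries (-2.17) and 2.59 CPM in ventral and 13.3 CPM in dorsal E17.5 libraries (-2.33). Shox2, a homeobox gene, was higher in ventral cells in all but the E17.5 pair, with 26.9 CPM in ventral and 1.72 CPM in dorsal E10.5 libraries (3.97). With no filter on low counts, 5 genes passed in all 4 pairs: Gcg, Barx1, Slc38a5, Peg10 and Yam1.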

How the data were processed

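The deposited counts are whole reads per gene. Per the submitters' processing notes, TopHat2 2.1.0, Bowtie2 and HTSeq 0.6.0 were used on GRCm38 (mm10). For the annotation release and strand setting, nothing is stated in the labels or headers. Per the labels, bulk libraries came from poly(A) RNA with a directional kit, and cells from Smart-seq2, which keeps no strand. The deposited RPKM of the bulk groups pool their libraries, so tests used counts. The median cell had 1064163 gene reads (range 201191 to 1738015). Cells of a set were summed, and 37 sets of 3 or more cells in 11 groups were used of 41. No doublet caller was run.

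Bulk libraries were fitted together in edgeR 4.0.16, and sets likewise in a second model (quasi-likelihood F test, TMM scaling, filter on low counts), with Benjamini-Hochberg adjustment over 17690 or 17433 genes and a threshold of 0.05. SE is the log2 fold change over the root of F. CPM of single cells and of set sums of Sim1 used the plain total. P-values measure the spread between libraries or sets, which may be technical. DESeq2 1.42.0, RLE scaling, no filter, the replicate number as a block and leaving out single libraries or sets were tried. Scripts were tested on simulated data. Named were Sim1, its partners and neighbours, up to 4 passing members per list with the smallest p, the 8 most similar genes per data type and genes passing in several pairs. Sim1 and the lists were chosen with earlier results of these data known.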

Additional observations from a re-analysis of the deposited data

Results flagged for a closer look

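In 6 groups of sets, the highest and lowest set were compared with the gap to their neighbours by Dixon's criterion, which chance meets in about 1 in 20 groups. The share of dorsal E10.5 Pdx1-high cells with a Sim1 read was 80.0% in set 5 and 100% in the other 4 sets used, which rests on 1 cell without a read of 5. The summed Sim1 level of ventral E10.5 Pdx1-high set 2 was 3.19 CPM, while the other 4 sets had 0 to 0.239 CPM. In that set 16 of the 17 Sim1 reads came from 1 cell.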

How the results depend on the processing

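Under RLE scaling, DESeq2 and the replicate block, the 4 bulk pairs, both gate comparisons and both set comparisons kept their counts of called list members within 1.5 times. With no filter on low counts, 1 member passed in Ngn3-GFP-high cells and 1 at E17.5, where 0 had passed, and 5 genes passed in all 4 pairs, where 0 had. Leaving out a library gave 9 to 13 called members at E10.5, against 14 with all. The replicate numbers were not taken as pairs (correlations 0.12 to 0.49 in bulk, 2 pairs each, and -0.00243 to 0.129 over sets). With the replicate block 16 members were called at E10.5, 22 on each side of the Ngn3 gate and 8 in Pdx1-low sets, against 14, 20 (ventral), 21 (dorsal) and 9 without it, and 0 in the other comparisons.

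The Sim1 log2 ratio at E10.5 was -4.78 with a pseudocount of 2 and -6.35 from the deposited RPKM, and in Ngn3-GFP-low cells -3.70 with a pseudocount of 2. Counted from 10 CPM, the shares of cells with Sim1 were 71.4% (dorsal Pdx1-high), 72.5% (dorsal Pdx1-low), 2.56% (ventral Pdx1-high), 2.27% (ventral E9.5) and 0% in the ventral Pdx1-low, Liv2-, Liv2+ and Pdx1+, liver bud and E15.5 liver cells. Thinned, they were 0% in ventral Pdx1-low and Pdx1+, 1.69% in Liv2- and 1.85% in Liv2+ cells. Leaving out a set gave 0 to 18.2% in liver bud, 0 to 3.70% in ventral Pdx1-low, 2.70 to 29.4% in Liv2+ and 6.25 to 21.4% in ventral E9.5 cells. Without the 25 cells of the other protocol, chosen after seeing the data, the ventral E9.5 share was 5.26%.

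Some log2 fold changes that missed the threshold changed sign when a library or set was left out, and the only one of these that passed in any setting was Gprc6a in Pdx1-low sets without ventral set 5 (-7.87, adjusted p = 0.0375). In Ngn3-GFP-high cells these ranged from -0.037 to 0.063 for Arnt, -0.062 to 0.070 for Arnt2, -0.059 to 0.14 for Ascc3 and -0.57 to 0.21 for Gprc6a. In Ngn3-GFP-low cells they ranged from -0.052 to 0.016 for Arnt, -0.045 to 0.15 for Arnt2, -0.51 to 0.76 for Gprc6a and -0.020 to 0.54 for Rfx6. At E17.5 they ranged from -0.11 to 0.19 for Arnt2 and -1.78 to 0.56 for Lilrb4. In Pdx1-high sets they ranged from -0.19 to 0.74 for Arnt and -0.46 to 0.058 for Ascc3, and in Pdx1-low sets from -0.13 to 0.20 for Arnt and -7.87 to 0.31 for Gprc6a. In the Pdx1-low sets Arnt was also at -0.044 under both RLE scaling and DESeq2 and at -0.014 with no filter. The cause of these shifts was not tested.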
